A study of Homo sapiens with 12 samples.

Results

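KM-H2, a cell line of classical Hodgkin lymphoma, was compared with L1236 and L428, the other Hodgkin lines of the same study. The comparison took the 2 arrays of KM-H2 and the 4 arrays of the other Hodgkin lines, 6 of 12 arrays in all, selected by the line named in their titles, and it covered every non-control probe set. The remaining arrays carried 3 B-cell lymphoma lines, with 2 arrays each of Namalwa (Burkitt lymphoma), SU-DHL4 and SU-DHL6 (both diffuse large B-cell lymphoma), and served as reference levels. The 8 arrays of the Hodgkin lines and Namalwa were treated as an earlier dataset. For SU-DHL4 and SU-DHL6 the line and the dataset therefore cannot be told apart. All lines were untreated and grown in RPMI medium with fetal bovine serum. Values are log2 signals of Affymetrix HG-U133A arrays, whose probe sets combine several short probes against the same transcript or transcripts. Each group is 1 established line, so nothing here tells what is particular to KM-H2 from what would vary between any patients' tumours. The labels do not say that duplicates were separate cultures. P-values therefore measure the spread between duplicate arrays alone, and that spread may be technical.

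Classical Hodgkin lymphoma arises from B cells whose tumour cells, the Hodgkin and Reed-Sternberg cells, have lost much of the B-cell programme. They are known for CD30, for chemokines that draw other leukocytes and for constant NF-kB and JAK-STAT signalling. The 3 lines carried these marks to different degrees. TNFRSF8, which encodes CD30, read 9.20 and 9.25 in KM-H2, 8.03 and 7.98 in L1236 and 10.24 and 10.46 in L428. KM-H2 lay between the other Hodgkin lines, and all 3 were above the B-cell means of 7.02, 7.04 and 7.05. The B-cell genes MS4A1 (CD20, 6.11 and 6.46 in KM-H2), CD79A (6.78 and 6.80) and CD79B (6.60 and 6.84) were not called against the mean of the other Hodgkin lines. In the B-cell lines MS4A1 averaged 11.03 to 12.73, far above its level in KM-H2.

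Pearson's r between duplicates, taken over probe sets, which are not independent of each other, was 0.992 in KM-H2 and 0.995 in L1236 and in L428. KM-H2 had more probe sets with duplicates over 2-fold apart (122) than L1236 (17) or L428 (20). SU-DHL6 replicate 2 stood apart from the other arrays in its duplicate agreement and in the 3′ to 5′ ratio of GAPDH (log2 difference 0.47). In the comparison of the Hodgkin lines it entered only the shared estimate of spread, and without it 511 rather than 502 genes were set apart as defined next. It also entered the SU-DHL6 means given as reference levels and the choice of a probe set for each gene. Line means of KM-H2 correlated at 0.930 with L1236 and 0.942 with L428, and the latter lines at 0.945 with each other.

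A gene was called when its adjusted p (limma, Benjamini-Hochberg over 22215 probe sets) was under 0.05 and its log2 difference at least 1 in size. Against the mean of L1236 and L428, 923 of 11963 genes were called (7.72%), 464 higher in KM-H2 (3.88%) and 459 lower (3.84%). Against L1236 alone 1166 genes were called (9.75%), 4.85% higher and 4.90% lower, and against L428 alone 1063 (8.89%), 4.36% higher and 4.53% lower. Counted as probe sets, these were 1560 (7.02%), 1980 (8.91%) and 1737 (7.82%) of 22215. The other lines each accounted for part of the first count. Of the genes called higher against the mean, 101 were also called against L1236 but not L428 and 77 against L428 but not L1236. The corresponding counts of lower genes were 142 and 99. A set of 502 genes (4.20%) was called in the same direction against the mean and against each line, 284 higher (2.37%) and 218 lower (1.82%), and is described here as set apart from both. The KM-H2 arrays lay wholly outside the range of the 4 other arrays for 4385 genes (36.7%), 20.5% above and 16.1% below, so the lack of overlap given below for single genes is frequent in itself. With the line rather than the array as the replicate, 99 genes were called against the mean, 85 higher and 14 lower, and 94 of these were among the genes set apart from both. That way 16 of 48 gene lists had any called member. In that fit KM-H2 was 1 value, so the spread came from the other lines alone. Genes with little spread among those lines pass more readily, so such calls are no replication of KM-H2. Counts of list members given below stand beside the shares of all genes called against the mean, 3.88% higher and 3.84% lower.

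**Figure D1:**
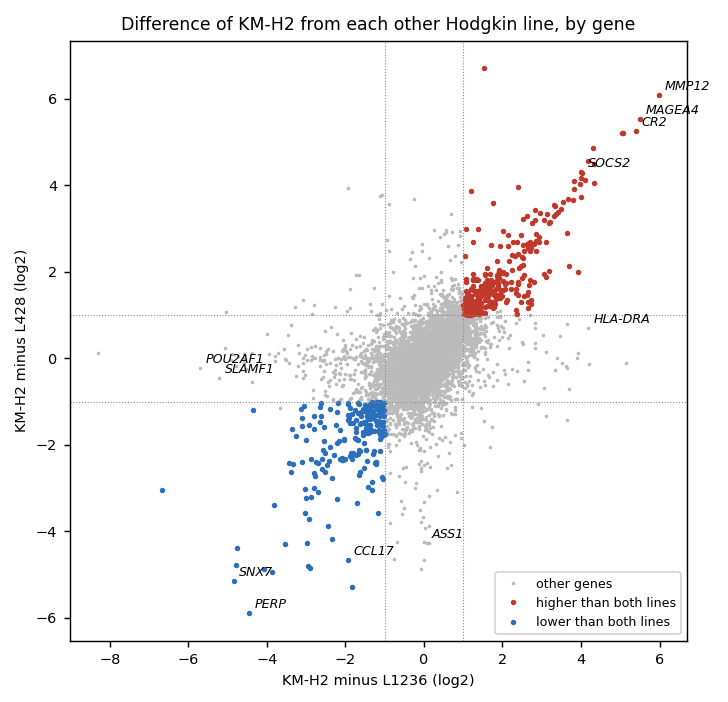
Log2 difference of KM-H2 from L1236 (x axis) and from L428 (y axis) for each gene, with dotted lines at a difference of 1. The 284 genes called higher than both lines (red) and the 218 called lower (blue) lie in opposite corners, while HLA-DRA and POU2AF1 differ mainly from L1236 and ASS1 from L428.

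The B-cell lines gave different backgrounds to both directions. Of the 284 higher genes, 142 lay at least 1 log2 unit from the means of all 5 other lines, and for 31 all 3 B-cell lines lay within 1 of KM-H2. Of the 218 lower genes, 68 lay at least 1 from all 5 lines, and for 62 all 3 B-cell lines lay within 1 of KM-H2. The level was thus shared with B-cell lines more often among lower than among higher genes as counted, a difference that was not tested.

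The leading higher gene was MMP12, macrophage elastase, a matrix metalloprotease of macrophages. It read 11.31 and 11.18 in KM-H2, 5.17 and 5.33 in L1236 and 5.15 and 5.18 in L428. The B-cell lines averaged 5.12 to 5.16. Both KM-H2 arrays lay far above all others, and all 10 others were under the lower quartile of the data (5.71), near which signal cannot be told from background and a fold is understated. The difference was 6.04 ± 0.09 SE, adjusted p = 4.2e-10, a fold of 65.6. In such bulk RNA fewer expressing cells and less RNA per cell cannot be told apart. CR2, complement receptor 2 or CD21, a co-receptor of mature B cells and the entry receptor of Epstein-Barr virus, read 10.99 and 10.63 in KM-H2, 5.38 and 5.45 in L1236 and 5.48 and 5.63 in L428. Namalwa lay between at 7.73 and 7.87, and the other B-cell lines were low. KM-H2 exceeded its Hodgkin counterparts by 5.32 ± 0.15 SE, adjusted p = 9.9e-09, or 40.1-fold.

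**Figure D2:**
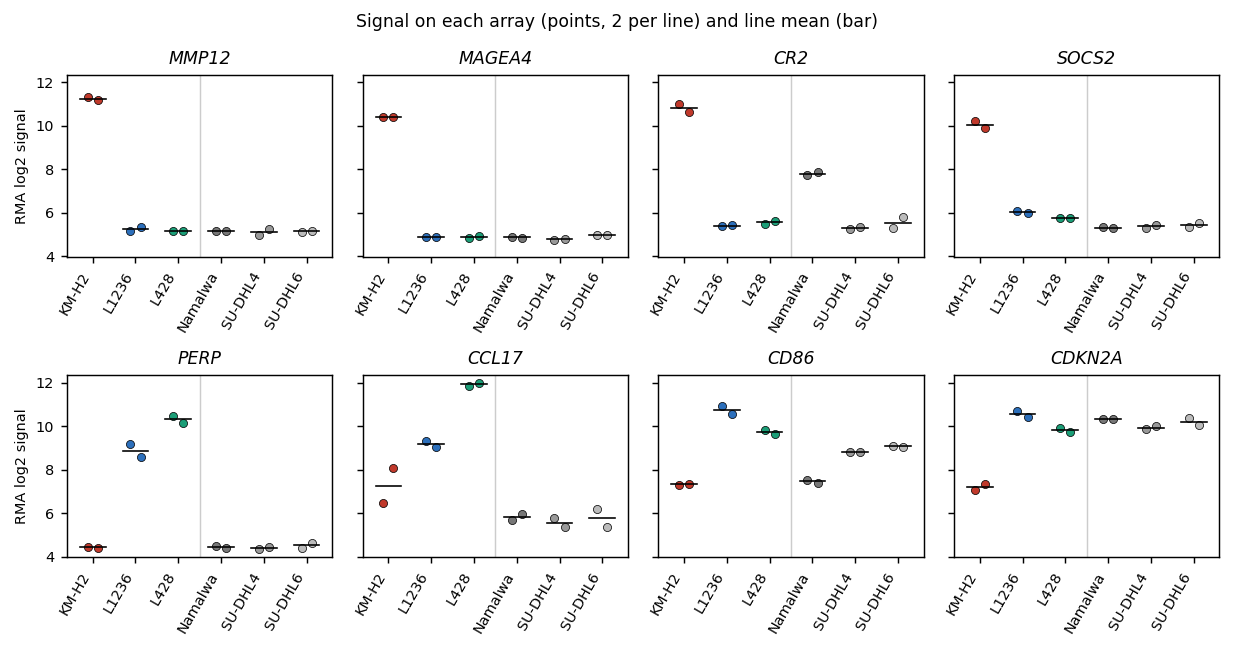
Log2 signal of 8 genes on each array (points, 2 per line) with line means (bars), Hodgkin lines left and B-cell lines right of the grey line. MMP12, MAGEA4, CR2 and SOCS2 are high in KM-H2, PERP, CCL17 and CD86 are lower there than in L1236 and L428, and CDKN2A is lower in KM-H2 than in all 5 other lines.

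Cancer-testis antigens had the highest share of members called higher in KM-H2 among the 48 lists examined. These proteins, many encoded on the X chromosome, are normally confined to germ cells and appear in some tumours. Of 21 measured genes of the list, 11 were called higher (52.4%) and 0 lower, and all 11 were set apart from both lines. The median log2 difference was 1.53, against 0.01 over all genes. MAGEA4 read 10.40 and 10.41 in KM-H2, 4.89 and 4.91 in L1236 and 4.83 and 4.93 in L428 (5.52 ± 0.07 SE, adjusted p = 1.5e-10). The KM-H2 arrays stood apart by a wide gap, and the B-cell lines matched the low Hodgkin lines at 4.77 to 4.99. MAGEA6 differed by 5.14 ± 0.11 SE, adjusted p = 2.7e-09, and MAGEA1 by 5.13 ± 0.10 SE, adjusted p = 2.3e-09. MAGEA10 (4.07), MAGEA12 (2.67) and MAGEC1 (2.35) followed. MAGEC1, MAGEB1, MAGEB2 and PRAME are named after their values were seen. The SSX genes, first known as fusion partners in synovial sarcoma, were high as well, with SSX1 at 11.49 and 11.64 against 7.27 and 6.71 for the line means, and SSX3 at 11.03 and 11.57 against 7.12 and 6.75, a difference of 2.48 by the mean of its probe sets against 4.37 by the one shown. The 2 probe sets of SSX1 differed by 2.06 and 4.58. CTAG2, a relative of the antigen NY-ESO-1, differed by 3.17 ± 0.10 SE, adjusted p = 2.9e-08.

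MAGEB1 and MAGEB2 differed from these in that L1236 and L428 also carried signal well above the B-cell lines. MAGEB1 read 10.09 and 9.93 in KM-H2, 8.33 and 8.32 in L1236 and 8.06 and 8.06 in L428, against means of 4.90, 4.74 and 5.26 in the B-cell lines. All 3 Hodgkin lines were high for this gene, with KM-H2 the highest by 1.81. MAGEB2 was arranged likewise (1.53). PRAME, an antigen with a broader range in tumours, was highest in L1236 (10.69 and 10.72), with 9.36 and 9.80 in KM-H2 and 8.94 and 8.61 in L428, and was not called (adjusted p = 0.69). MAGEA8, MAGEA11 and MAGEC2 were not called, with both KM-H2 arrays within 0.2 of the line means of L1236 and L428. The MAGEA and SSX genes are close copies, so probe sets may read several members and the number of separate genes behind this count is uncertain.

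**Figure D3:**
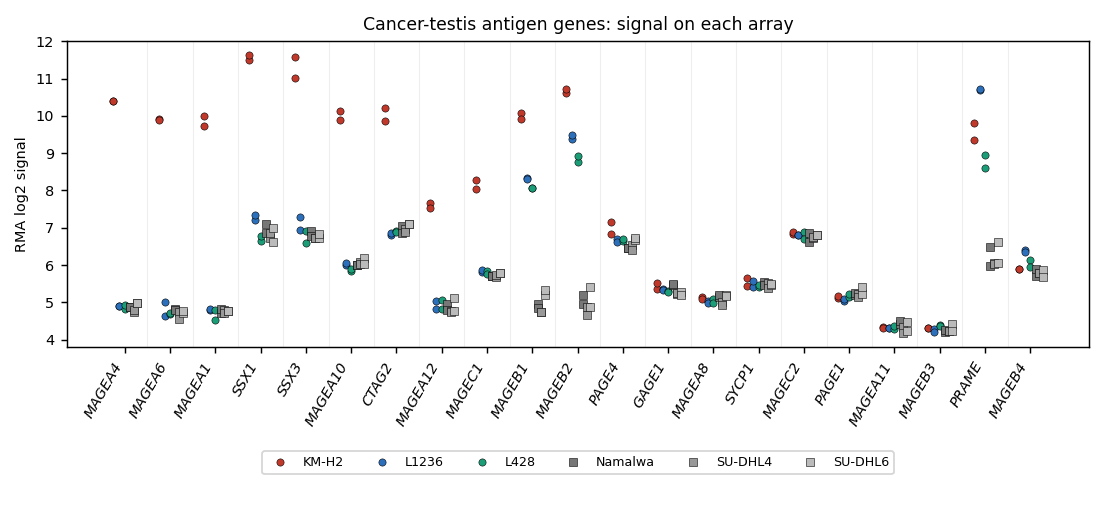
Log2 signal of the 21 measured cancer-testis antigen genes on each array, ordered by the difference of KM-H2 from the mean of L1236 and L428. The first 9 genes are high only on the KM-H2 arrays (red), MAGEB1 and MAGEB2 are high in all 3 Hodgkin lines, and the other genes lie close together except PRAME.

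Promoter sequences are shown for a called and an uncalled MAGEA member, since CpG methylation of such promoters is known to silence this family. They come from RefSeq (GRCh38.p14) and run from 250 bases before to 50 after the gene's start, with CG pairs in capitals.
MAGEA6, minus strand of chrX:152769640-152769939: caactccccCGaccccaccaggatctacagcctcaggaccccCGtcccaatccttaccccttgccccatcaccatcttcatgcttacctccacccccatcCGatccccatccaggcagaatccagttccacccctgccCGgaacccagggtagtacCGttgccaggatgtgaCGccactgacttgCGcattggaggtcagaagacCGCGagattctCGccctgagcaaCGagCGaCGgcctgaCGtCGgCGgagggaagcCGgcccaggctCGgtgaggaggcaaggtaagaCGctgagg
MAGEA8, plus strand of chrX:149880933-149881232: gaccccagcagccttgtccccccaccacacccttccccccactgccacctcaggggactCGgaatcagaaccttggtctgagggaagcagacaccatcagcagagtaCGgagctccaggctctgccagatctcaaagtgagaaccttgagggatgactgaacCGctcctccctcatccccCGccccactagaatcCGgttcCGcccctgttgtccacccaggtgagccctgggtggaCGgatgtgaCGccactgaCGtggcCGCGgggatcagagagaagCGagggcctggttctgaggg
The MAGEA6 window held 19 CG pairs and the MAGEA8 window 12, against a median of 14 over 35116 promoters of the table. The uncalled MAGEA11 went the other way with 21. The called MAGEA12 had 9 in 1 of its 2 windows but 15 in the richer one. The MAGEA3 window was identical to that of MAGEA6 over its 300 bases. Of the list, 17 measured genes had a promoter in the table. Each gene was counted by its promoter with the most CG pairs. The CG count ran from 5 to 21 with a median of 15 in the 7 genes set apart. It ran from 2 to 21 with a median of 12.5 in the 10 others, so the ranges overlapped. Methylation was not measured on these arrays.

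SOCS2, a cytokine-induced inhibitor of growth hormone and JAK-STAT signalling, was among the leading higher genes. It read 10.21 and 9.89 in KM-H2, 6.08 and 5.97 in L1236 and 5.75 and 5.78 in L428. The B-cell lines lay lower still, at 5.32, 5.37 and 5.43. The difference was 4.16 ± 0.11 SE, adjusted p = 6.3e-09, and a further probe set gave 3.16. The related feedback inhibitor CISH went the other way, with 8.24 and 8.27 in KM-H2, 10.08 and 9.90 in L1236 and 9.72 and 9.66 in L428 (-1.58 ± 0.12 SE, adjusted p = 6.7e-06). Its KM-H2 arrays lay below all 4 others and near the B-cell means of 7.91 to 8.09. PTPN1, a phosphatase that removes phosphate from JAKs, fell by 1.07 against the mean (adjusted p = 1.5e-05) and was called against L428 but not L1236, and the mean of its probe sets fell by 0.41, short of a call. Of 18 measured genes of the SOCS and restraint list, 1 was higher and 2 were lower.

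Among 9 measured JAK and STAT genes, 1 rose and 3 fell, with a median difference of -0.66. JAK1, a kinase shared by many cytokine receptors, was the higher one (1.11, adjusted p = 0.0027). The transcription factor STAT3 read 8.39 and 8.49 in KM-H2, 8.96 and 8.87 in L1236 and 11.28 and 11.30 in L428, so that L428 stood alone and the difference from the mean (-1.66) was not called against L1236. STAT6, the factor of interleukin 4 and 13 signalling, differed by -1.05 and the kinase JAK2 by -1.07, and both were called against L1236 but not L428. JAK2 no longer reached a difference of 1 without L1236 replicate 1 (-0.98), nor did STAT6 without KM-H2 replicate 1 (-0.94).

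Of 21 measured genes listed as STAT targets, 6 were called lower (28.6%) and 2 higher (9.52%), beside 3.84% and 3.88% over all genes. Whether STAT factors raise or lower each of them in these cells was not tested. With lines as replicates 0 were lower and 1 higher, so this balance was not kept. CCL17, the chemokine TARC that attracts T helper cells, read 6.45 and 8.06 in KM-H2, 9.33 and 9.02 in L1236 and 11.86 and 11.98 in L428. Every KM-H2 array was below every other Hodgkin array, although the KM-H2 duplicates themselves lay far apart (-3.30 ± 0.38 SE, adjusted p = 1.4e-04). IL13RA1, a chain of the interleukin 13 receptor, showed 6.33 and 5.77 in KM-H2, 9.28 and 9.32 in L1236 and 7.82 and 7.86 in L428 (-2.52 ± 0.13 SE, adjusted p = 7.4e-07), again without overlap. FCER2 (CD23) was called lower (-1.68) against the mean and against L1236 but not L428. L1236 read 9.41 and 9.31 against 6.57 and 6.58 in L428. The survival gene BCL2L1 (-1.25) and the repressor GFI1 (-1.14) were likewise called against L1236 but not L428. BCL6, a repressor that defines the germinal centre, was slightly higher in KM-H2 at 7.57 and 8.25. It read 6.78 and 6.95 in L1236 and 6.88 and 6.83 in L428 (1.05 ± 0.18 SE, adjusted p = 0.0017). All Hodgkin lines remained far below the B-cell lines (10.64 to 11.45), and the difference was 0.71, short of a call, without KM-H2 replicate 2, and 0.75 as the mean of the gene's probe sets.

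CISH and BCL6 are shown together because both belong to the list of STAT targets and their signals differed in opposite directions. Each carries the letters TTCNNNGAA, the spaced palindrome that STAT factors are known to bind, 4 times. A STAT factor can raise or lower a gene, so the opposite signs say nothing of STAT activity. Matches are in capitals. The motif reads the same on either strand, no match overlapped another, and for BCL6 the richer of 2 RefSeq promoters is given.
CISH, minus strand of chr3:50611725-50612024: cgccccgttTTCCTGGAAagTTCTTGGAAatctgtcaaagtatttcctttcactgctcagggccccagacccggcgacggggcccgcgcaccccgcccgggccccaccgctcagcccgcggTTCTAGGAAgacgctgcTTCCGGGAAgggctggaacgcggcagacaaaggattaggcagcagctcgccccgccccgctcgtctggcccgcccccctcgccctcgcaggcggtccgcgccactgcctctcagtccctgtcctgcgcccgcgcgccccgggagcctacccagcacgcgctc
BCL6, minus strand of chr3:187745419-187745718: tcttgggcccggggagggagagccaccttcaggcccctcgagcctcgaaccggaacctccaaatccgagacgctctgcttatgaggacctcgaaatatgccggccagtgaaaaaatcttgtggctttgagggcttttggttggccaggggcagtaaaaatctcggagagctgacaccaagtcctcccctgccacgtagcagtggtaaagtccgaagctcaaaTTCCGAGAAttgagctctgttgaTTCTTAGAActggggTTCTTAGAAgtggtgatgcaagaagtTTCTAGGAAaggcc
The CISH matches began 241, 230, 129 and 112 bases before the start, and those of BCL6 began 28 and 5 bases before and at bases 11 and 37 of the transcript. At least 1 match was present in 7.66% of the 35116 promoters and at least 4 in 7 promoters (0.0199%). The pair was chosen after these counts were seen. Of 17 list genes with a promoter in the table, 5 had a match. The letters are a description of the window and say nothing of binding in these cells.

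Of 21 measured markers typical of Hodgkin cells, 6 were called lower (28.6%), 5 of them against both lines, and 3 higher (14.3%), or 1 without KM-H2 replicate 2. With lines as replicates 0 were called in either direction. Much of what is known of these markers was learned on such lines, so the list is not independent evidence of direction. CCR7, a receptor for homing to lymph nodes, read 9.25 and 9.36 in KM-H2, 11.84 and 11.93 in L1236 and 11.46 and 11.36 in L428 (-2.35 ± 0.17 SE, adjusted p = 7.4e-06). The ranges did not overlap, and KM-H2 still exceeded the B-cell means (5.33 to 7.17). BATF3, an AP-1 factor of Hodgkin cells, differed by -1.48 ± 0.16 SE, adjusted p = 7.4e-05, and GATA3, the T helper factor found in Hodgkin cells, by -1.45 ± 0.14 SE, adjusted p = 5.1e-05. The decoy receptor IL1R2 fell by 1.14 against the mean and was called against L1236 only. In the other direction, CD83, a maturation marker of dendritic cells, read 11.002 and 10.92 against 8.24 and 8.28 in L1236 and 9.93 and 10.01 in L428 and was called against L1236. TNFRSF9, the costimulatory receptor 4-1BB, was higher than in both lines (1.31 ± 0.23 SE, adjusted p = 0.0018), with a difference of 0.96 without KM-H2 replicate 2. ID2, an inhibitor of B-lineage factors, was 1.22 higher (adjusted p = 0.015), with adjusted p = 0.12 without KM-H2 replicate 1 and 0.056 without replicate 2.

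Molecules that B cells and Hodgkin cells show to T cells were called in both directions. Of 16 measured costimulation and checkpoint genes, 6 were lower (37.5%) and 2 higher (12.5%), and the median was -0.33. With lines as replicates 0 were called in either direction. CD86, the ligand of CD28 and CTLA4, read 7.30 and 7.33 in KM-H2, 10.91 and 10.58 in L1236 and 9.84 and 9.63 in L428 (-2.92 ± 0.11 SE, adjusted p = 6.2e-08). CD58, the ligand of CD2, read 7.62 and 7.86 in KM-H2, 10.34 and 10.17 in L1236 and 10.32 and 10.42 in L428 (-2.58 ± 0.12 SE, adjusted p = 4.3e-07). For both genes the KM-H2 arrays lay below all 4 others, although the 5 probe sets of CD58 ran from -2.58 to -0.20 with a mean difference of -1.30. CD47, which signals to phagocytes not to engulf the cell, differed by -2.37 (adjusted p = 1.6e-06), or -1.30 by the mean of its probe sets, with L428 highest at 12.01. SLAMF1 (-2.84) and LGALS9 (-1.20) were called against L1236 only, and LGALS3 (-1.66) against L428 only. CD200, an inhibitory ligand, was higher, with 9.41 and 8.28 in KM-H2, 6.12 and 6.11 in L1236 and 7.59 and 7.57 in L428 (2.0 ± 0.25 SE, adjusted p = 2.2e-04), and the adhesion molecule CD48 was 1.28 higher (adjusted p = 0.0023), or 0.82 and not called without KM-H2 replicate 1.

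MHC class II genes, which present peptides to CD4 T cells, were high in KM-H2 and L428. Of 17 measured genes of the list, 7 were called higher than the mean (41.2%) and 0 lower, and with lines as replicates 0 were called. Against L1236 9 were higher, against L428 1 was, and none was called against both. HLA-DRB4, a further DR beta gene outside the list, was set apart from both lines (2.68 ± 0.19 SE, adjusted p = 5.6e-06) but by 1 of its 3 probe sets (0.01 to 2.68), and is named after its value was seen. The median difference was 1.60 from L1236 and 0.05 from L428. HLA-DRA, the alpha chain of HLA-DR, read 13.01 and 12.47 in KM-H2, 8.66 and 8.45 in L1236 and 12.02 and 12.07 in L428, with B-cell means of 11.37 to 12.14. L1236 was the low line, by 4.18 below KM-H2 (adjusted p = 1.5e-07), whereas the difference from L428 was 0.69 (adjusted p = 0.018). HLA-DPB1, HLA-DRB1, HLA-DMA, HLA-DQB1 and HLA-DMB were likewise called against L1236 but not L428. By the mean of its probe sets HLA-DQB1 differed from the mean of both lines by 0.76 and was not called. CD74, the class II chaperone, was 1.62 above L1236 (adjusted p = 6.6e-06) and -0.39 from L428 (adjusted p = 0.042). CIITA, the master activator of class II genes, was not called, with 7.39 and 7.51 in KM-H2, 7.44 and 7.34 in L1236 and 7.55 and 7.44 in L428 (adjusted p = 0.97). Its 3 probe sets differed from the mean of both lines by 0.01 to 0.59, and none was called. HLA-DQA1 was near 6.4 in L1236 and in all B-cell lines and differed by 2.51, or 1.15 by the mean of its probe sets, and HLA alleles can differ in how well they match such probes, which was not tested.

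**Figure D4:**
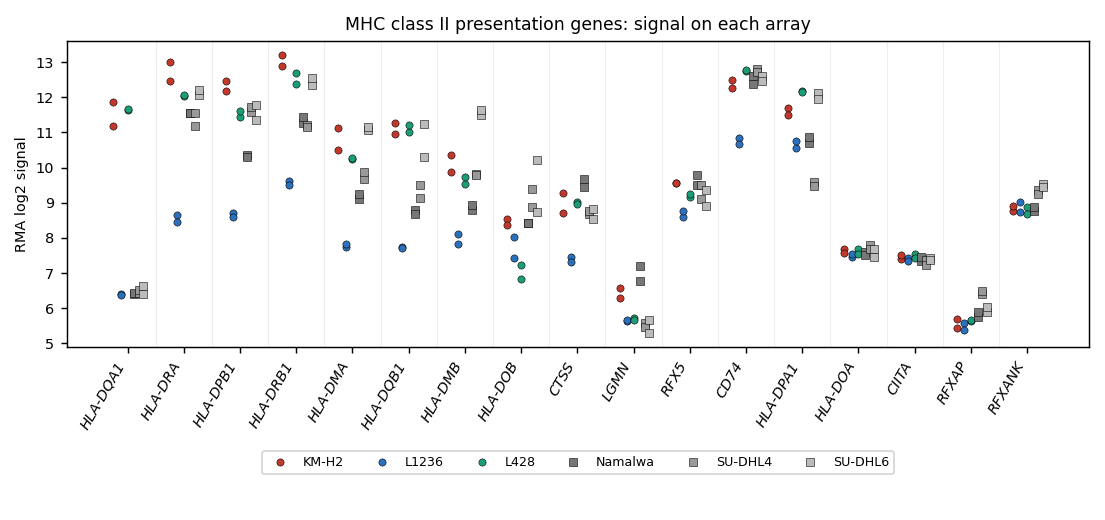
Log2 signal of the 17 measured class II presentation genes on each array, ordered by the difference of KM-H2 from the mean of L1236 and L428. KM-H2 (red) and L428 (green) lie together and above L1236 (blue) for the first 7 genes, while CIITA, RFXAP and RFXANK show little spread between the Hodgkin lines.

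B-lineage genes changed in both directions. Of 22 measured surface and receptor genes, 4 were higher (18.2%) and 2 lower (9.09%), with a median of 0.02. After CR2 the main one was CD53, a tetraspanin of leukocytes, with 9.88 and 10.26 in KM-H2, 7.72 and 7.70 in L1236 and 7.61 and 7.16 in L428 (2.52 ± 0.25 SE, adjusted p = 4.9e-05) and B-cell means of 10.24 to 11.80. BLNK, the adaptor downstream of the B-cell receptor, was 1.70 higher (adjusted p = 2.5e-04), yet KM-H2 at 7.63 and 7.01 stayed below the B-cell means of 9.27 to 10.19. CD24 was 1.31 higher and was called against L1236 but not L428, and by the mean of its probe sets 0.87 and not called. CD37 differed by -1.53 and was called against L1236 only, with a difference of -0.75 without KM-H2 replicate 1. LEF1, a transcription factor of the WNT pathway and of early B cells, read 11.37 and 10.79 in KM-H2, 9.68 and 9.73 in L1236 and 8.36 and 7.82 in L428 (2.18 ± 0.18 SE, adjusted p = 1.6e-05), without overlap, and by the mean of its probe sets differed by 1.33. TCF4 (E2-2), a basic helix-loop-helix factor, was lower than in both lines (-1.32 ± 0.13 SE, adjusted p = 4.5e-05). PAX5 (-3.78 from L1236) and POU2AF1 (-5.71 from L1236) were not called against L428, with differences from that line of 0.05 and -0.22, and by the mean of its probe sets PAX5 differed from the mean of both lines by -0.99, short of a call. TCL1A, a cofactor of AKT in B cells, was 3.72 higher (adjusted p = 2.5e-07) and is named after its value was seen.

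Plasma cell genes gave 0 higher and 4 lower of 16 (25%, beside 3.84% of all genes). ELL2, an elongation factor of immunoglobulin transcription, read 6.74 and 6.95 in KM-H2, 8.42 and 8.0 in L1236 and 8.55 and 8.47 in L428 (-1.52 ± 0.12 SE, adjusted p = 1.1e-05), and the mean of its probe sets gave -0.73. XBP1, the transcription factor of the secretory programme, read 8.39 and 8.09 in KM-H2, 9.64 and 9.75 in L1236 and 9.60 and 9.36 in L428 (-1.35 ± 0.18 SE, adjusted p = 3.3e-04). Both were lower on the KM-H2 arrays than on all other Hodgkin arrays. MZB1 (-1.32) and CD27 (-1.31) differed from L1236 only. Of 33 secretory pathway genes, 3 were higher (9.09%) and 1 lower (3.03%). Their median difference was -0.17, beside -0.13 for the plasma cell list, so the medians did not part the lists. With lines as replicates 0 members of either list were called. The chaperone HSP90B1 (1.58, adjusted p = 3.1e-04, or 0.82 by its other probe set) and the disulfide isomerase PDIA4 (1.5, adjusted p = 4.1e-05) were higher than in both lines.

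Regulators of NF-kB changed without one direction, with 2 of 19 higher and 2 lower (10.5% each). CYLD, a deubiquitinase that restrains NF-kB, read 5.92 and 5.85 in KM-H2, 8.66 and 8.84 in L1236 and 9.11 and 9.06 in L428 (-3.03 ± 0.25 SE, adjusted p = 1.4e-05). Its 7 probe sets were all lower but ran from -3.03 to -0.09, 2 of them called, and their mean difference was -0.82. TNFAIP3, the ubiquitin-editing inhibitor A20, was -2.33 from the mean, read 8.38 and 8.10 in KM-H2 and 9.04 and 9.17 in L1236, and was high only in L428 (12.12 and 11.95). TRAF3, which restrains the non-canonical arm, rose by 1.73 ± 0.10 SE, adjusted p = 1.8e-06 (1.14 by the mean of its probe sets), and RELB, a subunit of that arm, by 1.17 ± 0.12 SE, adjusted p = 7.8e-05. Of 27 NF-kB target genes, 3 were higher (11.1%) and 5 lower (18.5%). BCL2A1, a survival protein, was 2.95 higher (adjusted p = 4.8e-06) and EBI3, a subunit of interleukin 27 and 35, 2.26 higher (adjusted p = 3.7e-06). CFLAR, the inhibitor of caspase 8 activation, differed by -1.72 from the mean (adjusted p = 3.2e-04), and PMAIP1 (NOXA), which opposes survival proteins, by -1.97 (adjusted p = 0.0013).

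CDKN2A, which encodes the tumour suppressors p16 and ARF, read 7.05 and 7.33 in KM-H2, 10.70 and 10.44 in L1236 and 9.91 and 9.74 in L428. The B-cell lines lay at 9.93 to 10.32, so KM-H2 was the low line of all 6 (-3.01 ± 0.12 SE, adjusted p = 1.5e-07). Its 3 probe sets ran from -3.01 to -0.07, with a mean difference of -1.91. It was the only called member of 24 measured G1 genes. Of 35 mitosis and replication genes 1 was higher (2.86%) and 4 lower (11.4%). RRM2, a subunit of ribonucleotide reductase, was lower than in both lines (-1.38 ± 0.10 SE, adjusted p = 5.6e-06) and FEN1, a flap endonuclease of replication, higher (1.26 ± 0.12 SE, adjusted p = 4.6e-05), while PLK1, BUB1 and TTK were called against L428 only. TTK lost its call when KM-H2 replicate 2 (-0.90), L1236 replicate 1 (-0.98) or L428 replicate 1 (-0.97) was left out, and BUB1 by the mean of its probe sets (-0.48).

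Of 23 integrin genes, 2 were higher (8.7%) and 1 lower (4.35%). ITGB2, the beta chain of leukocyte integrins, read 8.97 and 9.54 in KM-H2, 6.27 and 6.15 in L1236 and 6.17 and 5.95 in L428 (3.12 ± 0.22 SE, adjusted p = 5.1e-06). ITGA4, the alpha chain that pairs for binding VCAM1, was lower (-2.40 ± 0.16 SE, adjusted p = 4.5e-06), and its ligand VCAM1 was higher (1.45 ± 0.08 SE, adjusted p = 1.4e-06). CORO1A, an actin regulator of leukocytes, was lower than in all 5 other lines at 8.22 and 8.37, against 10.99 in L1236 and 10.71 in L428 (-2.56 ± 0.15 SE, adjusted p = 1.4e-06). The chemokine CXCL12 was higher (2.58 ± 0.19 SE, adjusted p = 7.2e-06), as was its scavenging receptor ACKR3 (2.48, adjusted p = 0.0015). The KM-H2 arrays of ACKR3 read 8.24 and 6.28, and its difference was 1.5 without KM-H2 replicate 1. With values raised to the lower quartile ACKR3 was not called (1.55, limma adjusted p = 0.076). The complement and Fc receptor list gave 4 higher of 27 (14.8%) and 2 lower. Besides CR2 and ITGB2 these were FCGR2B, the inhibitory Fc receptor (1.64 ± 0.16 SE, adjusted p = 4.1e-05), and CD55, which restrains complement (1.20 ± 0.14 SE, adjusted p = 1.9e-04). Both were set apart from L1236 and L428.

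Stromal, endothelial and epithelial markers gave 1 of 25 higher (SPARC) and 3 lower. SPARC, a matrix glycoprotein, read 8.96 and 8.66 in KM-H2, 4.71 and 4.72 in L1236 and 4.71 and 4.66 in L428 (4.11 ± 0.10 SE, adjusted p = 5.7e-09, or 2.57 by the mean of its probe sets). Outside that list, COL6A3, a chain of collagen VI, read 10.46 and 10.81, against line means of 6.31 and 6.59 (4.19 ± 0.11 SE, adjusted p = 8.4e-09). PLAT, tissue plasminogen activator, differed by 4.42 ± 0.11 SE, adjusted p = 6.0e-09, the sulfotransferase CHST15 by 4.16 ± 0.39 SE, adjusted p = 3.5e-05 and the actin bundler PLS3 by 4.11 ± 0.08 SE, adjusted p = 1.7e-09, with 10.90 in KM-H2, 9.38 in L1236 and only 4.19 in L428. The log2 of the stromal list's summed signal was 11.62 to 11.67 in KM-H2, 12.02 to 12.07 in L1236 and 11.74 to 11.75 in L428. CDH5 (4.75) and EPCAM (4.49), markers of endothelium and epithelium chosen after the values were seen, lay under the lower quartile in KM-H2. The collagen genes COL1A1 (8.5) and COL1A2 (7.13) and the filament gene VIM (12.62) lay above it. They read 8.29, 6.96 and 12.02 in L1236 and 8.5, 7.01 and 13.11 in L428. The myeloid list, to which MMP12 belongs, gave 2 of 34 higher and 2 lower, with summed signals of 12.85 to 12.87 in KM-H2, 12.45 to 12.51 in L1236 and 12.88 to 12.99 in L428. LYZ, lysozyme of macrophages, lay at 4.17 in KM-H2, 4.16 in L1236 and 4.06 in L428. MARCO, a receptor of macrophages, was called lower against the mean (-2.12). The monocyte marker CD14 averaged 6.36 in KM-H2, 5.45 in L1236 and 5.53 in L428, and the receptor CSF1R 6.94, 6.66 and 6.12, and neither was called. Their part in the value of MMP12 was not tested. The T and NK cell list gave 1 of 28 higher, CD4 (1.96 ± 0.10 SE, adjusted p = 5.6e-07), and 1 lower, GATA3. CD4 differed by 0.10 by its other probe set. The summed signals of the T and NK cell list were 12.26 to 12.35 in KM-H2, 12.41 to 12.43 in L1236 and 12.41 to 12.53 in L428. CD3D read 6.53 and 8.46 on the KM-H2 arrays, against 6.41 in L1236 and 6.50 in L428, was not called, and is named after its value was seen. HBE1, the embryonic haemoglobin chain, was 4.0 higher (adjusted p = 7.8e-09) by 1 probe set, whereas its other probe set differed by 0.04, and 0 of 13 erythroid and platelet markers were called (1 at an unadjusted p under 0.05).

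The leading lower gene was PERP, a membrane protein of desmosomes and a p53 target. It read 4.44 and 4.40 in KM-H2, 9.17 and 8.57 in L1236 and 10.46 and 10.16 in L428, and all B-cell lines were as low as KM-H2 (4.40 to 4.52), for a difference of -5.17 ± 0.16 SE, adjusted p = 2.0e-08. SNX7, a sorting nexin, read 5.05 and 5.26 in KM-H2, 10.01 and 9.98 in L1236 and 10.23 and 10.37 in L428 (-4.99 ± 0.11 SE, adjusted p = 3.4e-09). P4HA2, a prolyl hydroxylase of collagen, differed by -4.79 ± 0.14 SE, adjusted p = 1.4e-08 and HSD17B12, an enzyme of fatty acid elongation, by -4.41 ± 0.19 SE, adjusted p = 1.8e-07. EIF5A, a translation factor, was lower by each of its 3 probe sets (-4.57 to -1.46, mean -2.58). Its representative probe set read 6.90 and 7.31 in KM-H2 against 11.86 and 11.48 for the other line means. Others among the 15 leading lower genes were NDST4 (-4.87), HDGFL3 (-4.48), PLA2G4A (-3.92, or -2.06 with values raised to the lower quartile), TSPYL5 (-3.88) and CRIP1 (-3.88). AKAP12 (-3.63), FZD6 (-3.60), HEBP2 (-3.55) and SPINT2 (-3.32) followed. The 5 probe sets of HDGFL3 ran from -5.41 to -0.06, and 3 of them were called.

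Of 25 amino acid synthesis and ATF4 target genes, 4 were lower against the mean, and against L428 9 were, such as ASS1 (-4.27 from L428, 0.07 from L1236), SLC1A4 (-2.73, though its difference from the mean was -0.94 without KM-H2 replicate 2) and PHGDH (-2.87). DDIT4 (2.24) and PSPH (1.89) were higher than in both lines, though PSPH was 0.90 by the mean of its probe sets. Of 27 histone genes, 0 were higher and 5 lower (18.5%, beside 3.84% of all genes), and 0 were called with lines as replicates. Against L1236 6 were lower (beside 4.90% of all genes) and against L428 2 (beside 4.53%). H1-2 (-2.08 ± 0.13 SE, adjusted p = 2.0e-06) and H2BC9 (-1.35) were lower than in both. Interferon response genes gave 1 higher (2.86%) and 4 lower (11.4%) of 35. The lower ones were led by IRF8, a B-cell and myeloid factor. IRF8 read 6.45 and 6.03 in KM-H2, 7.91 and 7.96 in L1236 and 9.56 and 9.59 in L428 (-2.51 ± 0.14 SE, adjusted p = 1.2e-06). No member was called against the mean among 24 ribosomal protein genes, 22 of cholesterol synthesis, 11 metallothioneins and 26 of polycomb, DNA methylation and acetylation by limma at these thresholds. At an unadjusted p under 0.05, met by 36.6% of all genes, the counts were 5, 14, 0 and 14 in that order.

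**Figure D5:**
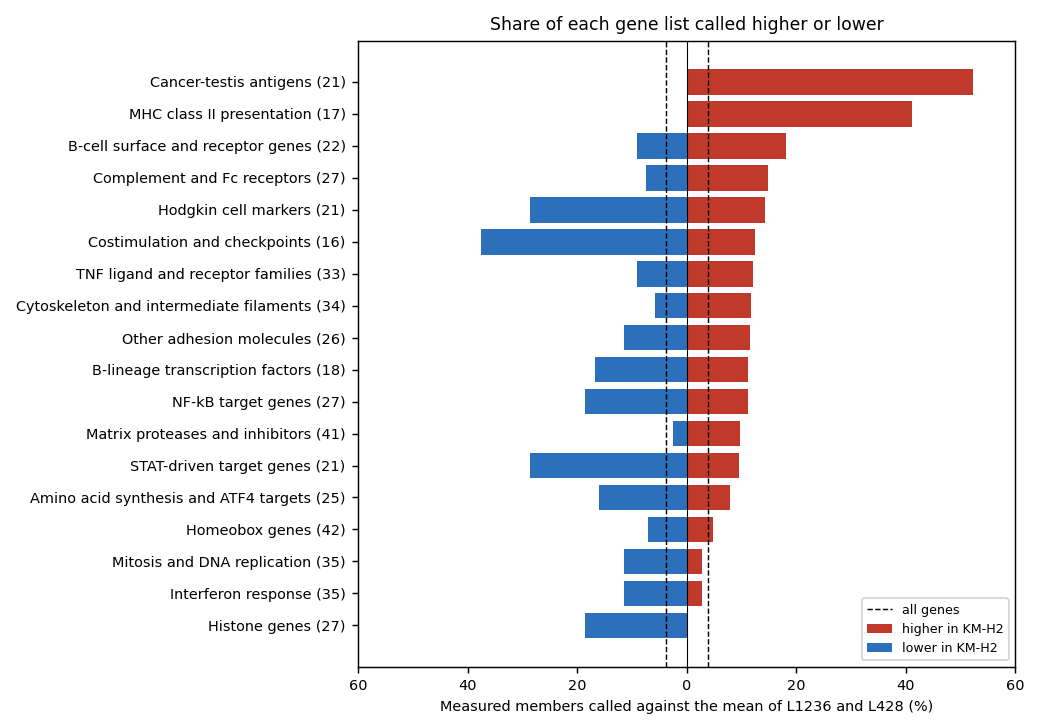
Share of measured members (number in brackets) called higher (red, right) or lower (blue, left) in KM-H2 than the mean of L1236 and L428, for the 18 lists with at least 5 called members, with the shares over all genes dashed. Cancer-testis antigens reach 52.4% and MHC class II genes 41.2% on the higher side, and costimulation genes 37.5% on the lower side.

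By their means over the 6 lines, the genes most like MMP12 in pattern were PLAT (Pearson r = 0.9998), MAGEA6 (0.9998) and MAGEA1 (0.9997). Those most like CR2 were PDIA4 (0.9963), PDE4B (0.9909) and ABRAXAS2 (0.982), and those most like SOCS2 were TBX3 (0.9966), IGFBP2 (0.9957) and EPB41L4B (0.9956). With 6 points of which KM-H2 is far from the rest, such values are set by that line.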

How the data were processed

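RNA of 6 untreated lymphoma lines, 2 HG-U133A arrays each, was measured. The authors made the deposited log2 values by robust multi-array averaging (RMA) under R 2.10.1, per the submitters' processing notes, which give no settings. The deposited values run from 3.62 to 14.29 and hold no detection calls, and the number of arrays limits the precision. A deposited table of the authors' own Hodgkin against B-cell comparison was not used.

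Of 22283 probe sets, 68 controls were left out and 22215 tested. Of these, 19065 had 1 gene symbol in the platform annotation, 1043 several and 2107 none, and 19053 matched a RefSeq table by Entrez identifier. Of that table only the names and the order of genes by chromosome and start were used. A gene was represented by its probe set with the highest mean over the 12 arrays (11963 genes).

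All 12 arrays entered a limma 3.58.1 fit (R 4.3.3) with a coefficient per line and no block, two-sided, tested on simulated data. KM-H2 was set against the mean of the means of L1236 and L428 and against each. Named genes are MMP12, CR2 and SOCS2, the 15 largest in each direction among genes set apart, up to 8 called members per list and direction (the 2 smallest p where fewer than 2 are called), Hodgkin and B-cell markers and neighbour runs. The 48 lists (1079 genes measured), the members and the comparison were chosen with earlier results of these data known. Replicate numbers were not used to pair the samples in the main fit. Alternatives covered the arrays, variance model, filter, floor, normalization, probe set, block, unit of replication, fold test and each array left out. No value for XIST or Y-linked genes is given.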

Additional observations from a re-analysis of the deposited data

How the results depend on the processing

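Against the mean of L1236 and L428, 1560 probe sets were called (51.4% of them higher). With line means as replicates, where the spread is that between lines, 193 were called and 87.0% of these were higher, so the balance of the directions depends on this choice. With limma's treat, which tests against a log2 difference of 1, the counts were 594 against the mean, 803 of 1980 against L1236, 604 of 1737 against L428 and 177 of the 502 genes set apart. The counts under the other alternatives stayed within 1.5 times of the main counts. Leaving out each array in turn gave 1546 to 1666 probe sets against the mean, 1923 to 2018 against L1236, 1641 to 1808 against L428 and 482 to 536 genes set apart, of which at least 446 were shared with the main set. With a replicate block the counts were 1560, 1980, 1737 and 502, with 1, 1 and 3 probe sets exchanged in the first 3 counts and the 502 genes shared. Deviations of same-numbered arrays correlated at -0.443 to 0.296 over 15 pairs of lines, 9 of them below 0. Such mixed values do not settle whether some same-numbered arrays were processed together. With line means KM-H2 was 1 value, so the spread was that between the other lines alone. Line means also gave no value against a single line, and means of a gene's probe sets none for probe-set counts. By such means 446 genes were set apart, 412 of them shared.

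Of 208 named genes that were called, 0 changed direction, 160 kept the call in every alternative except line means and treat, and 179 lost it with line means. Uncalled genes with differences near 0 changed sign. These were CIITA (-0.005 with a common median, -0.002 with quantile normalization), TAL1 (-0.01 by the mean of its probe sets) and, with single arrays left out, CIITA (-0.05 to 0.068, below 0 without KM-H2, L1236 or L428 replicate 2), CD79A (-0.264 to 0.017, at 0.017 without L1236 replicate 2 and 0.001 without L428 replicate 2), CD79B (-0.018 to 0.215), MTF1 (-0.03 to 0.142) and TNFRSF8 (-0.007 to 0.1). The cause was not tested in any of these cases. Signal near the lower quartile (5.71) limits the folds, since 66 of the 284 higher genes and 29 of the 218 lower genes had their lower level there.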

Other observations

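Some called genes were neighbours on a chromosome, counted over 11932 genes with a place in the RefSeq order. The longest run of consecutive measured genes called against the mean in 1 direction held 5 genes of the class II region (HLA-DRA, HLA-DRB6, HLA-DRB1, HLA-DQA1 and HLA-DQB1, all higher), of which HLA-DRB6 (0.64) and HLA-DQB1 (0.76) were not called by the mean of their probe sets. A run of 4 held RTN1 (2.30), PCNX4 (1.08), DHRS7 (1.76) and PPM1A (1.22), also higher. PCNX4 (0.54) and PPM1A (0.66) were not called by the mean of their probe sets, nor PCNX4 with values raised to the lower quartile (0.17) or without KM-H2 replicate 1 or L1236 replicate 2. DHRS7 was 1.07 by that mean, and RTN1 1.45 with the raised values. Among genes set apart from both lines, runs of 3 were PAM (1.79), GIN1 (1.10) and PPIP5K2 (1.08), and PDIA4 (1.5), ZNF282 (1.32) and ZNF212 (1.16), all higher, and UQCRB (-1.28), MTERF3 (-1.31) and PTDSS1 (-1.62), all lower. PPIP5K2 was 0.92 and not called without KM-H2 replicate 2, and UQCRB -0.94 and not called by the mean of its probe sets, so these runs depend on such choices. DNA copy number was not measured on these arrays.

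Further genes set apart from both lines were chosen after their values were seen. Their lists gave few calls, with 2 higher and 2 lower of 33 WNT pathway genes, 2 and 3 of 42 homeobox genes, and 1 and 3 of 34 receptor tyrosine kinases. WNT5A, a ligand of non-canonical WNT signalling, read 9.82 and 9.96 in KM-H2, 8.25 and 8.11 in L1236 and 7.58 and 6.98 in L428 (2.16 ± 0.17 SE, adjusted p = 1.1e-05), while the receptor FZD6 was at 4.57 and 4.75 in KM-H2 against 8.47 and 8.04. The receptor kinase EPHB1 was lower (-2.76 ± 0.14 SE, adjusted p = 6.7e-07), the AP-1 factor MAF higher (2.5 ± 0.09 SE, adjusted p = 5.3e-08), HOXC6 higher (2.03 ± 0.12 SE, adjusted p = 1.4e-06) and HOXB7 lower (-2.19 ± 0.15 SE, adjusted p = 4.6e-06). Annexins split, with ANXA4 higher (1.91) and ANXA1 lower (-1.94), as did interleukin genes, with IL15 higher (1.72 ± 0.15 SE, adjusted p = 2.1e-05) and the receptor IL5RA lower (-2.47 ± 0.11 SE, adjusted p = 2.3e-07). The 4 probe sets of IL5RA ran from -2.79 to 0.05, with a mean difference of -1.44.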
